A study of Monodelphis domestica with 5 samples.

Results

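VIM and TWIST1 are mesenchymal genes whose H3K9me3 peaks on chromosome 8 of the opossum assembly MonDom5 lie inside peaks of both marks of activation (MOAs), H3K4me3 and H3K9Ac. VIM encodes vimentin, the intermediate filament protein of mesenchymal cells, and TWIST1 encodes a basic helix-loop-helix transcription factor that acts in mesoderm and in the change of epithelial cells to mesenchymal ones. The 2 loci were chosen by their H3K9me3 peaks, that is by the position and score of those peaks and by their nesting in both MOAs, so these values are descriptions and support nothing. Each locus was taken as the H3K9me3 peak, called the anchor below, and every peak of the 4 marks with a base within 100 kb of it. This gave 28 peaks at VIM and 40 at TWIST1, or 68 of the 308249 peaks in the 4 lists.

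Native ChIP-seq, in which chromatin that is not cross-linked is digested with micrococcal nuclease before precipitation, was carried out on primary ear fibroblasts of a single adult F1 male of the opossum *Monodelphis domestica*, bred from a mother of the LL1 stock and a father of the LL2 stock. The sample labels give passages 4 to 6 and say that chromatin was pooled for sisters only, whereas the methods describe a lower passage number and the donor here was 1 male. There was 1 library for each of H3K4me3, H3K9Ac, H3K9me3 and H3K27me3, and 1 library of input chromatin, without a second condition. Replicate error is therefore unknown throughout, and nothing was tested. The score that MACS gave a peak over input is minus 10 times the log10 of a p-value, and a score of 50 stands for 1e-05. The lists of the MOAs begin at a score of 50 and those of the marks of repression (MORs), H3K9me3 and H3K27me3, at 30. The lists hold no read counts, and a score also depends on depth and peak width, so ranks were taken within 1 list. Scores have a ceiling at 3100, where 5582 H3K4me3 peaks and 1245 H3K9Ac peaks were tied and cannot be ranked, and others lay above it. At or above 3100 were 7.35% of H3K4me3 and 2.62% of H3K9Ac peaks. Markers of fibroblasts and of other cell types, and other mesenchymal genes, were not analysed here.

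H3K4me3 marks promoters and is broad at some genes that define a cell type, and H3K9Ac accompanies it at active promoters and enhancers. H3K9me3 is typical of constitutive heterochromatin. H3K27me3 is laid down by Polycomb complexes and is known from silenced developmental genes. In this study's own reading H3K27me3 was diffuse, with most of its peaks between genes, and it was dropped from the search for candidates. The study looked for MOAs and H3K9me3 at 1 promoter because these marks are held to exclude each other on a single allele, so that finding both could mark a difference between the parental alleles. Peak lists of unphased reads cannot tell alleles, or cells, apart. In the study a candidate promoter also had to hold a CpG island, and VIM and TWIST1 were both on its candidate list. A sequence variant in VIM was picked there for follow-up. Among the candidates with good sequence, the study reported allele-biased expression for Meis1, Cstb and Rpl17. Its text names no such result for VIM or TWIST1.

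At VIM the anchor ran from 256737780 to 256741953, with a width of 4174 bases and a score of 388. Among the 159734 H3K9me3 peaks, 1.41% had a score at least as high and 3.81% were at least as wide. No other H3K9me3 peak within 100 kb had a higher score. The anchor lay near the middle of a broad H3K4me3 peak from 256729688 to 256748881, 19194 bases wide and at the score ceiling, of which it filled 21.7%. The H3K9Ac peak there ran from 256731481 to 256747746, was 16266 bases wide and was also at the ceiling. H3K4me3 extended 8092 bases below and 6928 bases above the anchor, and H3K9Ac 6299 and 5793 bases. The 3 marks were thus nested about a common centre, with H3K9me3 the narrowest and H3K4me3 the widest.

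The active domain at VIM was among the broadest in both lists. Its H3K4me3 peak ranked 103 by width of 79412 (0.130% at least as wide), and its H3K9Ac peak ranked 37 of 52511 (0.0705%). Other H3K9me3 peaks lay across each edge of the H3K4me3 domain. On the lower side a peak from 256729678 to 256731276 (score 97.5) shared 1589 of its 1599 bases with the domain and none with H3K9Ac. On the higher side a peak from 256747726 to 256749934 (score 201) shared 1974 of its 2209 bases with H3K4me3 and 21 with H3K9Ac. It also bridged the 235 bases that separate the domain from a small H3K4me3 peak (256749117 to 256750957, score 120) without H3K9Ac. H3K9me3 therefore lay at the centre and at both margins of the domain, with no H3K9me3 peak in the stretches between.

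At TWIST1 the anchor ran from 304139722 to 304142385, with a width of 2664 bases and a score of 223. Of all H3K9me3 peaks, 4.11% had a score at least as high and 13.1% were at least as wide. It lay at one end of its H3K4me3 domain, which ran from 304139027 to 304152531, was 13505 bases wide and reached the score ceiling. H3K4me3 extended 695 bases below the anchor and 10146 bases above it. The anchor's centre was thus at 15.0% of the domain's width, against 53.0% at VIM. Both positions hold for peaks as called. Merging peaks within 1000 bases would join this domain to an H3K4me3 peak 595 bases below it. It would also join the VIM domain to the small peak 235 bases above it. Positions after merging were not computed. The TWIST1 domain ranked 329 by width among H3K4me3 peaks (0.414% at least as wide).

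Acetylation across the TWIST1 domain was split into a pair of peaks, both at the ceiling, 346 bases apart. The first, from 304139063 to 304144264 (5202 bases), held the anchor, which took up 51.2% of it. The anchor's centre was at 38.3% of the width of that H3K9Ac peak, against 51.6% at VIM, so the placement differed less than in H3K4me3. The second, from 304144611 to 304152257 (7647 bases), held no H3K9me3. On the lower side, beyond a gap of 595 bases without MOAs, came another pair of active peaks. Its H3K4me3 peak (304134841 to 304138431) was at the ceiling and its H3K9Ac peak (304134688 to 304138339) scored 1840.1, and neither overlapped H3K9me3. Most of the active region at TWIST1 therefore carried MOAs without an H3K9me3 peak.

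**Figure D1:**
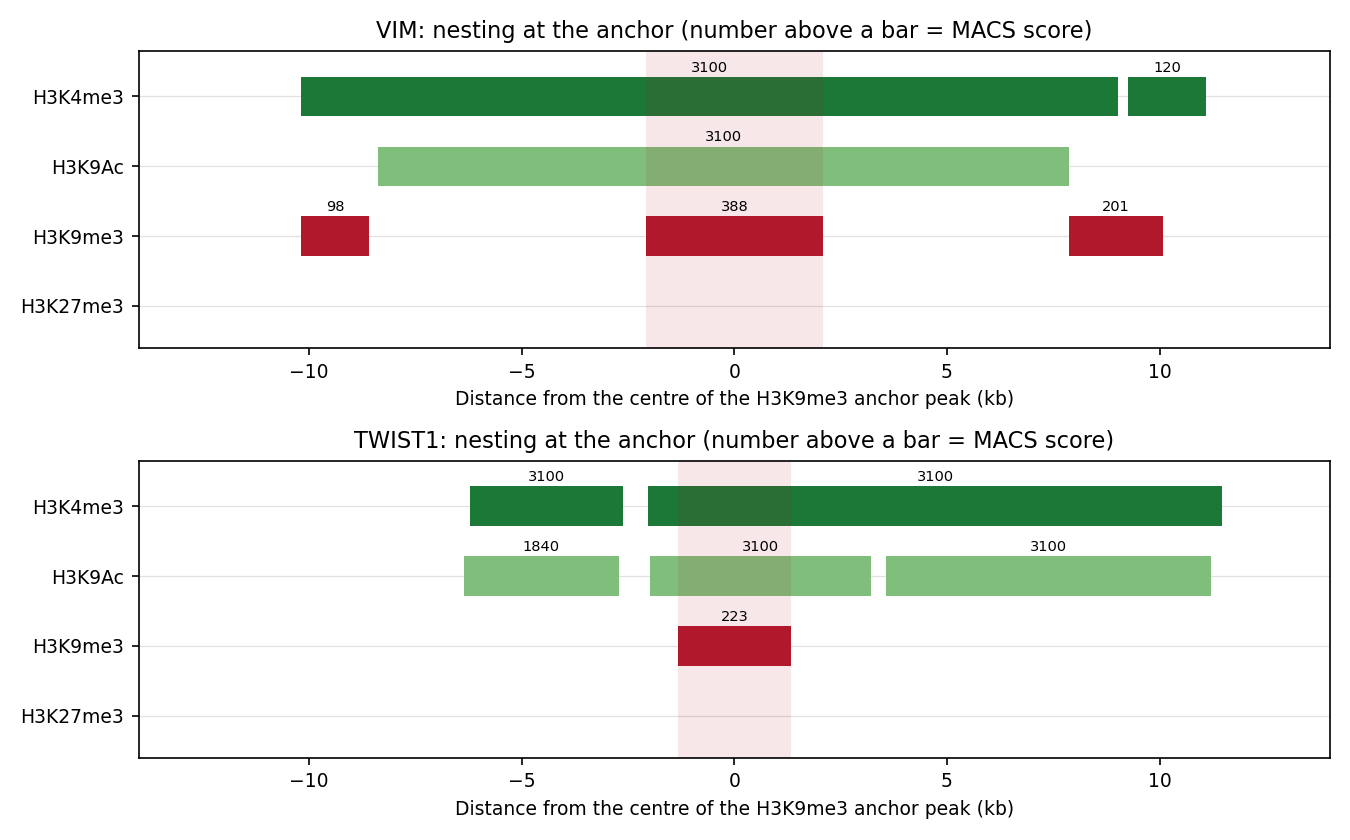
Peaks of the 4 marks within 14 kb of the anchor's centre at VIM (top) and TWIST1 (bottom), with distance in kb on the x axis, 1 row per mark, the MACS score above each bar and the anchor shaded. The VIM anchor (388) sits near the middle of its H3K4me3 and H3K9Ac peaks with H3K9me3 peaks of 97.5 and 201 at the margins. The TWIST1 anchor (223) sits at the lower end of its H3K4me3 domain as called, with no other H3K9me3 peak in view.

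The nesting was complete at both loci, as the choice of the loci required. All 4174 bases of the VIM anchor and all 2664 bases of the TWIST1 anchor lay inside both MOA peaks. In the whole list, 1555 H3K9me3 peaks (0.973%) overlapped both MOAs and 237 (0.148%) lay wholly inside both. Within the 1555, the VIM anchor ranked 74 by score and 86 by width, and the TWIST1 anchor ranked 196 by score and 257 by width. Within the 237, where the median score was 53.4 and the median width 1363 bases, VIM ranked 4 by score and 5 by width, and TWIST1 ranked 17 and 32. The neighbours of VIM in that order had scores of 403 and 363, and those of TWIST1 had 232 and 222. Both anchors were wider and had higher scores than these medians.

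**Figure D2:**
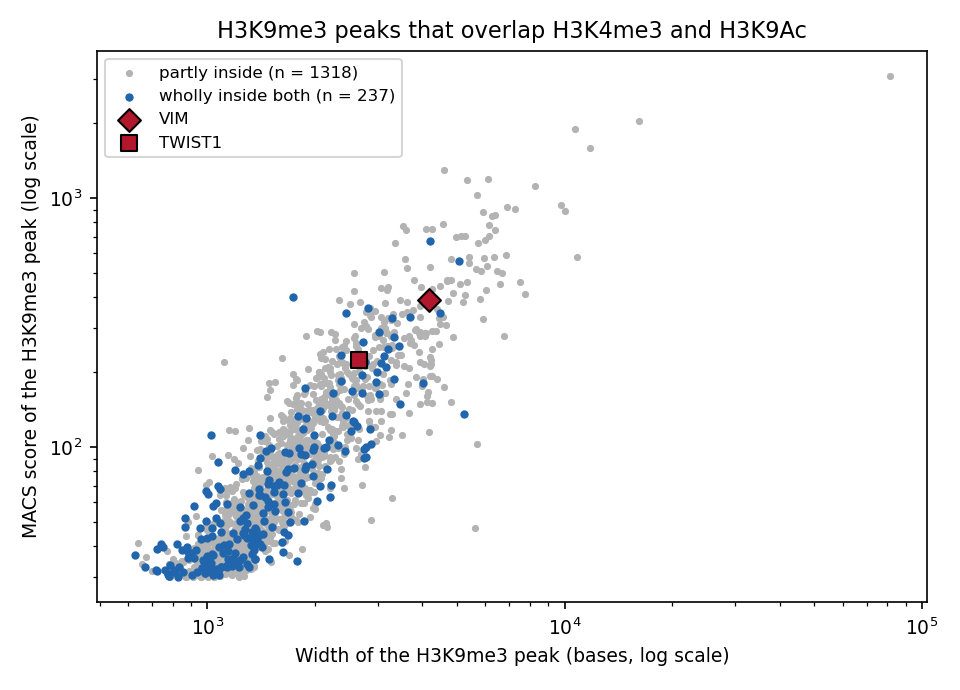
Score against width (both log scales) for the 1555 H3K9me3 peaks that overlap H3K4me3 and H3K9Ac, with the 237 that lie wholly inside both in blue and the others in grey. The VIM anchor (4174 bases, score 388) and the TWIST1 anchor (2664 bases, score 223) are marked in red, above the medians of 1363 bases and 53.4 for the blue points.

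The loci also differed in the number of H3K9me3 peaks under the H3K4me3 domain. The VIM domain overlapped 3 H3K9me3 peaks and the TWIST1 domain 1. Of all H3K4me3 peaks, 8.07% overlapped at least 1 H3K9me3 peak and 0.0227%, or 18 peaks, overlapped at least 3. A wide peak has more room for such overlaps. Among the 918 H3K4me3 peaks of at least 10000 bases the shares were 26.9% and 1.31%, and among the 103 at least as wide as that at VIM, 53 overlapped any H3K9me3 peak and 5 overlapped at least 3. The 3 peaks at VIM include the anchor by which the locus was chosen. All 3 had scores of at least 50, and 2 had scores of at least 100.

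Of the 1555 peaks, the 3 most like each anchor were found from 5 percentiles (score and width of the H3K9me3 peak, widths of the widest H3K4me3 and H3K9Ac peaks over it, and the share of it inside both). For VIM they lay on chromosome 7 from 178093315 to 178097801, on chromosome 5 from 184212039 to 184216246 and on chromosome 2 from 172168214 to 172173284, at distances of 2.93, 3.61 and 4.62 percentile units. For TWIST1 they lay on chromosome 3 from 49546076 to 49548790, on chromosome 8 from 275834013 to 275836980 and on chromosome 1 from 343906838 to 343909866, at 7.63, 9.54 and 10.2 units. All 6 were wholly inside both MOAs. The peak most like VIM had an H3K4me3 peak of 22590 bases over it and that most like TWIST1 one of 16386 bases. Both the share inside the MOAs and these widths were among the 5 measures that picked the peaks, so they are descriptions. Their genes were not analysed here.

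The annotated 3'-UTR region that the study listed as the target of its primers for each gene lay inside the H3K4me3 domain at its anchor. At TWIST1 it overlapped the anchor, and at VIM it overlapped the H3K9me3 peak at the lower margin of the domain and not the anchor. Which of the peaks lie at a promoter was not analysed here. In the newer assembly mMonDom1 the protein-coding neighbours of VIM in RefSeq are ST8SIA6, a sialyltransferase gene, and TRDMT1, a tRNA methyltransferase gene. Those of TWIST1 are FERD3L, which encodes another basic helix-loop-helix factor, and HDAC9, a histone deacetylase gene. The flanking peaks described next were not assigned to any gene.

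Within 100 kb of the VIM anchor there were 8 H3K4me3 peaks, 10 H3K9Ac peaks and 10 H3K9me3 peaks, and no H3K27me3 peak. H3K4me3 covered 27.3% of the window (55.7 kb), H3K9Ac 21.1% and H3K9me3 9.21%. Around TWIST1 there were 10 H3K4me3, 7 H3K9Ac, 16 H3K9me3 and 7 H3K27me3 peaks, which covered 17.5%, 12.8%, 15.4% and 5.91% of the window. More of the VIM window than of the TWIST1 window thus lay under each MOA, and less under each MOR. Windows of the same rule around the 1555 H3K9me3 peaks that overlap both MOAs had medians of 10 H3K4me3, 7 H3K9Ac, 7 H3K9me3 and 1 H3K27me3 peaks. Of those windows, 33.1% had at least the 10 H3K9Ac peaks seen at VIM, and 10.5% had at least the 16 H3K9me3 peaks seen at TWIST1. Around all H3K9me3 peaks the median was 18 H3K9me3 peaks and 55.5% had at least 16, so TWIST1 was below that median. Windows of neighbouring peaks share sequence, so these shares are descriptions.

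**Figure D3:**
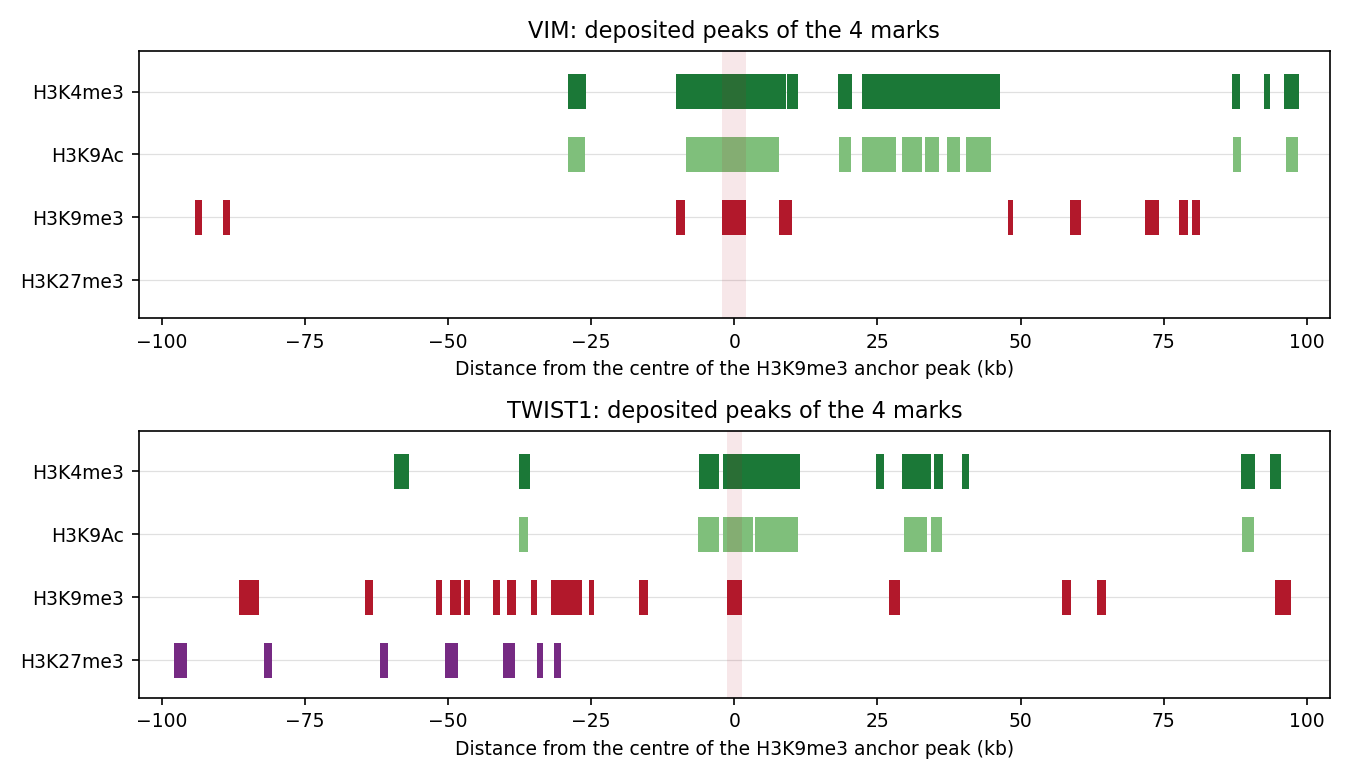
Every deposited peak within 100 kb of the anchor at VIM (top) and TWIST1 (bottom), drawn to scale with distance from the anchor's centre in kb on the x axis, 1 row per mark and the anchor shaded. VIM has 2 broad H3K4me3 domains and an empty H3K27me3 row, and TWIST1 has 7 H3K27me3 peaks, all on the lower-coordinate side.

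A second broad domain lay 20.3 kb above the VIM anchor. Its H3K4me3 peak, from 256762237 to 256786267, was at the ceiling and 24031 bases wide, which ranked 44 in the list (0.0554% at least as wide), ahead of the domain at VIM itself. H3K9Ac covered 75.8% of it in 5 separate peaks with scores from 128 to the ceiling, which the first and the last of them reached. No H3K9me3 peak overlapped it, and the nearest began 1441 bases beyond its upper edge. Of the 103 H3K4me3 peaks named above, 17 had another as wide within 100 kb. Between both domains stood a small pair of active peaks (256757978 to 256760485, H3K4me3 score 318, H3K9Ac score 208).

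Further from VIM the marks separated. The 40.6 kb between the second domain and the next active peak held 5 H3K9me3 peaks and no MOA peak. The strongest of them, from 256811601 to 256814051, had a score of 224 (4.07% of the list at least as high), and the others had scores from 35.5 to 72.0. Beyond this stretch H3K4me3 peaks with scores of 149, 50.8 and 323 returned, the first and last with H3K9Ac. On the lower side there was 1 active pair, an H3K4me3 peak of score 785 (256710877 to 256713949) that contained an H3K9Ac peak of score 216 (256710892 to 256713816). The remaining H3K9me3 peaks on that side were weak, at 37.2 and 35.4, and lay 90.8 and 86.0 kb from the anchor.

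Around TWIST1 the widest peak of each MOA was narrower than at VIM, although the median H3K9Ac width was larger (3652 against 2625 bases), and peaks of both MORs were more numerous. A strong H3K4me3 peak (304170265 to 304175477, score 3198) lay 27.9 kb above the anchor and contained an H3K9Ac peak of score 1254 (304170768 to 304174674). It was followed after 369 bases by a weaker H3K4me3 peak of score 205, and an H3K9Ac peak of score 135 reached across the gap. On its other flank an H3K9me3 peak (304168099 to 304170005, score 117) stopped 259 bases short of it. Other H3K4me3 peaks on the higher side had scores of 72.1, 64.5, 328 and 257, and of these the one with a score of 328 carried H3K9Ac (score 119). On the lower side, apart from the pair next to the domain, there were H3K4me3 peaks of 214 with H3K9Ac (score 78.0) and of 228 without it.

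The TWIST1 anchor was not the strongest H3K9me3 peak of its window. A peak from 304054555 to 304058074 had a score of 310 (2.22% of the list at least as high) and lay 81.6 kb below the anchor. A peak from 304109086 to 304114387 had a score of 279 and, at 5302 bases, ranked 3189 by width in the list. It lay 25.3 kb below the anchor, in a stretch of 29.3 kb without MOAs that held 4 H3K9me3 and 2 H3K27me3 peaks. The next stretch below it without MOAs, of 19.2 kb, held 5 H3K9me3 and 2 H3K27me3 peaks. The other 13 H3K9me3 peaks beside the anchor had scores from 30.9 to 117. Of the 15 H3K9me3 peaks other than the anchor, 11 lay on the lower side and 4 on the higher side. Much of that difference came from weak peaks. Scores below 50 were 48.8, 33.2, 37.5, 43.4, 45.4 and 30.9 on the lower side and 43.5 on the higher side.

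All 7 H3K27me3 peaks near TWIST1 lay on the lower side, from 28.9 to 94.2 kb from the anchor. Their scores ran from 30.2 to 99.2 with a median of 39.4, and 2 of them reached a score of 50. The strongest, from 304043134 to 304045542 (score 99.2, 10.4% of the list at least as high), was also the farthest from TWIST1. The next, from 304090508 to 304092742, had a score of 62.9. The series continued outward, since the first H3K27me3 peak outside the window (score 39.3) lay 105.1 kb below the anchor. None was found on the higher side within 100 kb.

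Some of the H3K27me3 peaks near TWIST1 overlapped H3K9me3, and none overlapped the MOAs. Of the 7, 4 shared bases with an H3K9me3 peak, and in the whole list 53.3% did so, so the share at TWIST1 was near that of the list. The extent of overlap differed. The peak from 304109563 to 304110782 lay wholly inside the 5302-base H3K9me3 peak, those from 304100687 and 304090508 shared 66.5% and 60.3% of their bases, and that from 304106563 shared 50 bases. Seen from H3K9me3, 4 of the 16 peaks around TWIST1 and 0 of 10 around VIM overlapped H3K27me3, against 5.55% in the list. In that list 64.8% of peaks had no H3K27me3 peak within 100 kb. The share was not taken over windows with as many H3K27me3 peaks as TWIST1. None of the 7 overlapped H3K4me3 or H3K9Ac, as 13.3% and 0.573% of the H3K27me3 list did. With 7 peaks, an absence of overlap cannot be told from these low shares.

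H3K27me3 was not used to choose the loci. At VIM the nearest H3K27me3 peak was 249.3 kb from the anchor, on the lower side, and was weak (256487031 to 256488494, score 33.4). A window without any was the more frequent case among all H3K9me3 peaks, at 64.8%. Among the 1555 it was found for 48.1%, and their median was 1 H3K27me3 peak. At least 7 H3K27me3 peaks, as at TWIST1, were found around 4.25% of all H3K9me3 peaks (1.48% when unplaced sequence was left out) and 4.50% of the 1555. Of the latter 70 windows, 5 had them on 1 side of the H3K9me3 peak, as TWIST1 did. The median distance from the 1555 peaks to the nearest H3K27me3 peak was 94.0 kb, and 24.7% of them had it as near as TWIST1 did. With peaks of a score of at least 50, the TWIST1 window held 2 H3K27me3 peaks, and 8.12% of H3K9me3 peaks had as many. With scores of at least 100 it held 0.

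**Figure D4:**
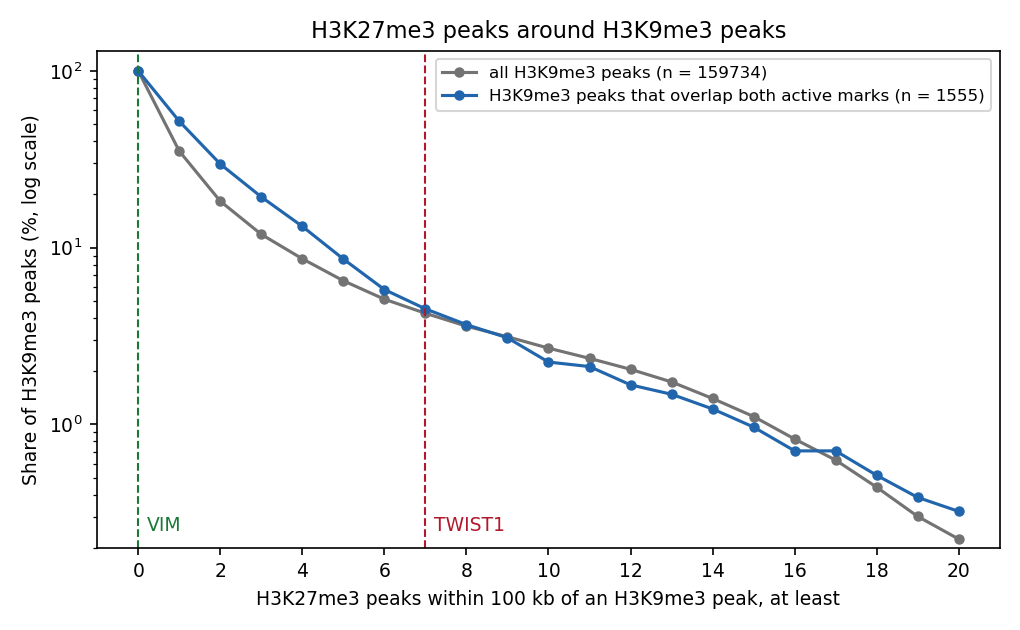
Share of H3K9me3 peaks (log scale, in percent) with at least a given number of H3K27me3 peaks within 100 kb, for all 159734 H3K9me3 peaks in grey and the 1555 that overlap both MOAs in blue. Dashed lines mark VIM, with 0, and TWIST1, with 7, where the curves stand at 4.25% (1.48% without unplaced sequence, not drawn) and 4.50%.

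The sides of the loci differed in what they carried. At TWIST1 the lower side held 20.7 kb of H3K9me3 and 12.0 kb of H3K27me3, against 7.77 kb and none on the higher side, whereas H3K4me3 covered 8.72 kb below and 24.1 kb above the anchor. At VIM the higher side held more of both kinds, with 40.4 kb of H3K4me3 against 11.2 kb below, and 10.5 kb of H3K9me3 against 4.10 kb. These H3K4me3 totals include the domain over each anchor. At TWIST1 that domain gave 695 bases below and 10146 above the anchor, and at VIM 8092 and 6928. At TWIST1, then, more sequence lay under MOR peaks on the lower side and under MOA peaks on the higher side. Much of the higher-side H3K4me3 there was the anchor's own domain. At VIM more sequence lay under H3K9me3 peaks and under MOA peaks on the higher side. Apart from the anchor and the H3K9me3 peaks across both margins of the domain, no H3K9me3 peak there overlapped an MOA peak. Whether sequence under these peaks was active or repressed was not tested.

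**Figure D5:**
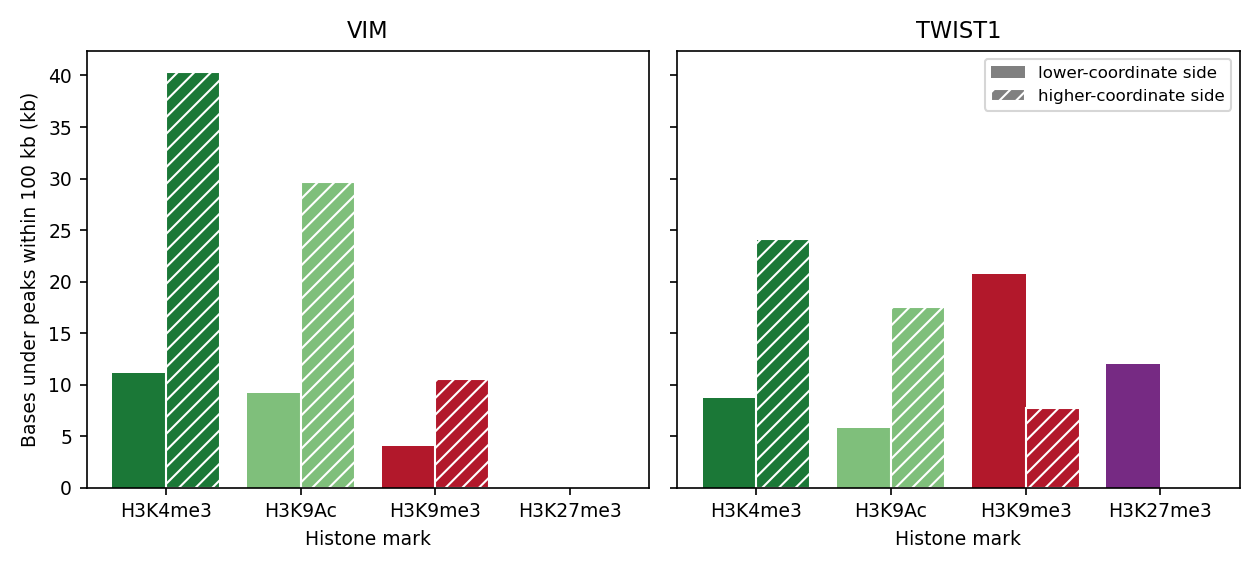
Kilobases under peaks of each mark within 100 kb of the anchor (anchor excluded, axis from 0) at VIM (left) and TWIST1 (right), with plain bars for lower and hatched bars for higher coordinates. At TWIST1 the H3K9me3 bars are 20.7 and 7.77 kb and the H3K27me3 bars 12.0 and 0 kb, while the H3K4me3 bars are 8.72 and 24.1 kb. The H3K4me3 bars include the domain over the anchor, with 695 bases below and 10146 above it at TWIST1.

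The overlap of H3K9Ac with H3K4me3 at both loci was near that of the whole lists. All 10 H3K9Ac peaks at VIM and all 7 at TWIST1 overlapped H3K4me3, against 90.0% of the list. In the other direction, 6 of 8 H3K4me3 peaks at VIM and 6 of 10 at TWIST1 overlapped H3K9Ac, against 57.1%. Bases shared by both MOAs came to 42.9 kb at VIM and 25.5 kb at TWIST1. Of the H3K9me3 peaks, 3 of 10 at VIM and 2 of 16 at TWIST1 overlapped H3K4me3 (3.83% of the list), and 2 and 1 overlapped H3K9Ac (1.03%). These counts include the anchors. Without them, the overlaps were those at both margins of the VIM domain and, 93.1 kb above the TWIST1 anchor, a peak of score 108 that shared 1062 bases with an H3K4me3 peak lacking H3K9Ac. Bases under H3K4me3, H3K9Ac and H3K9me3 together came to 4195 at VIM and 2664 at TWIST1, and all but 21 bases at VIM were those of the anchors.

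At the limit of the windows, the last peak inside at VIM was H3K9Ac (score 180, 94.3 kb from the anchor) and the first outside was H3K9me3 (score 36.7, 103.8 kb). At TWIST1 the last inside was H3K27me3 (score 99.2, 94.2 kb) and the first outside also H3K27me3 (score 39.3, 105.1 kb). An active pair at the ceiling in both MOA lists lay 110.3 kb above the TWIST1 anchor for H3K4me3 and 111.2 kb for H3K9Ac and was not counted.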

How the data were processed

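Per the authors' methods, reads were filtered, mapped to MonDom5 with Bowtie in Galaxy keeping the best alignment, and peaks were called per library with MACS against the input. The submitters' processing notes name CASAVA 1.7, Bowtie 1.1.2 and MACS 1.0.1. The deposited lists give the position of each peak and a score, minus 10 times the log10 of its p-value. Depth is not in the lists, and depth and width affect scores and peak numbers. Both loci and all lists were chosen with earlier results of these data known. Starts were written counting from 1, and 2 H3K9me3 starts below 0 were set to 0 first. A peak was counted if it had a base within 100000 bases of an anchor, and overlap meant at least 1 shared base. Every deposited peak was kept. Named genes were the 2 members, their neighbours and peaks by the likeness rule. RefSeq names came from mMonDom1, without coordinates. Python 3.11.15, numpy 2.4.6, pandas 2.3.3 and scipy 1.17.1 were used, and the interval code was tested on simulated data and checked against bedtools 2.31.1. The input library was not analysed here. Alternatives covered score thresholds, window sizes, merging, unplaced sequence and extent of overlap.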

Additional observations from a re-analysis of the deposited data

How the results depend on the processing

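With 1 library per mark, a count was taken as moved beyond a factor of 1.5 and a share when it left its exact 95% binomial interval. That interval treats peaks as independent and narrows with the length of the list. Small shifts in long lists were therefore labelled moved, and the label is no measure of replicate error. Of 116 alternative values for 36 results, 57 changed little and 59 moved. Complete nesting of both anchors (100%) was a condition of their choice. The alternatives run for it were merging and scores of at least 100. Neither could have lowered it, since merging only widens peaks and the MOA peaks over the anchors were at the ceiling. No paired analysis was possible because no mark had a second library. With scores of at least 50, peaks near VIM fell to 6 for H3K9me3, and near TWIST1 to 9 for H3K9me3 and 2 for H3K27me3. With scores of at least 100 these were 3, 6 and 0. A window of 50000 bases gave 5 H3K4me3 and 4 H3K9me3 peaks at VIM and 4 H3K27me3 peaks at TWIST1. A window of 200000 bases gave 15 H3K4me3 peaks at VIM, and 18 H3K4me3, 11 H3K9Ac and 14 H3K27me3 peaks at TWIST1. Merging gave 4 H3K9Ac peaks at TWIST1. The nearest H3K27me3 peak with a score of at least 50 was 428878 bases from VIM and 46979 bases from TWIST1. Shares of H3K9me3 peaks with a score as high as at VIM were 2.58% among scores of at least 50, 0.958% without unplaced sequence, 1.11% on chromosome 8 and 2.15% by score per kb, and for width 6.81%, 2.20% and 2.12% in the first 3 settings. For TWIST1 the same were 7.49%, 3.16%, 3.48% and 3.09% by score and 23.3%, 11.2% and 10.9% by width. For H3K4me3, the share at or above the ceiling was 7.62% without unplaced sequence and 6.70% on chromosome 8, and by score per kb 34.6% at VIM and 23.4% at TWIST1, and by width on chromosome 8 0.196% and 0.489%. For H3K9Ac it was 3.23% on chromosome 8, and by score per kb 29.7% and 1.34%, and by width on chromosome 8 6.26% at TWIST1. Among peaks that overlap both MOAs, VIM's share was 1.69% by score with 50% coverage, 1.69% with complete coverage and 7.12% with scores of at least 50, and 1.69%, 2.11% and 8.18% by width. TWIST1's were 5.64%, 7.17% and 18.9%, and 8.08%, 13.5% and 24.6%. Depth is not in the lists, and H3K9me3 and H3K27me3 peaks with scores from 30 to 50 rest on MACS p-values from 0.001 to 1e-05. Alternatives for H3K27me3 windows and for H3K9me3 peaks per domain were chosen after seeing the data. Without unplaced sequence 67.5% of windows had none and 1.48% at least 7, and with scores of at least 50 82.0% had none and 8.12% at least 2.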
